A study of Mus musculus with 4 samples.

Results

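Intraflagellar transport (IFT) and BBSome genes were followed across 4 mouse cell populations. The set was a fixed list of 38 gene symbols, listed by function but chosen with earlier results of these data known. Of these, 36 had a named probe set among 23185 named probe sets on the arrays. Arl6 and Arl13b were not analysed here, because the platform annotation gave no symbol for a probe set of either gene. Each population was measured on 1 Affymetrix array. Day0 cells were club cells of adult mouse lung taken without culture. The 3w+Dox cells, named Club-iPL in the labels, had been cultured for 3 weeks with doxycycline. The 3w+Dox+2w-Dox cells, called withdrawn cells here, had then been kept for 2 weeks in medium without the drug. The iPS cells are labelled Club-iPS, again with adult lung as the tissue. The labels give no genotype, strain, animal number, sort or clone for any population, and they do not name the transgenes that doxycycline acts on. Club cells kept in culture but never given doxycycline were not analysed here.

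Cilia are built and maintained by IFT, in which trains of the IFT-B and IFT-A complexes carry tubulin and membrane proteins along the axoneme. Kinesin-2 motors drive the trains towards the ciliary tip and dynein-2 brings them back. The BBSome, a coat-like complex recruited to membranes by the small GTPase Arl6, rides on these trains and moves signalling receptors out of the cilium. The same machinery serves the single primary cilium of fibroblasts, stem cells and many epithelial cells and the many motile cilia of airway ciliated cells, whereas axonemal dyneins and radial spokes belong to motile cilia.

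Signals are log2 values, and differences are in log2 units. With 1 array per population there is no spread between replicates, no difference given here has a replicate check, and precision is limited by having so few arrays. A gene was counted as differing where the 2 signals were at least 2-fold (1 log2 unit) apart and the brighter one reached 6.67, the median of all values. Background shares are taken over named genes whose brighter array reaches that median. All comparisons with Day0 share the Day0 array.

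Markers of the labelled cells and of other cell types were read on every array. All 10 ciliated cell markers reached the median of all values at Day0 and in withdrawn cells, 3 did so at 3w+Dox and 5 in iPS cells, and their median signals were 10.39, 8.87, 6.13 and 6.74 in that order. Club cell markers had medians of 13.40 at Day0, 11.19 at 3w+Dox, 12.27 after withdrawal and 6.25 in iPS cells, and alveolar type 2 markers, genes of another lung epithelial cell, had medians of 12.61, 11.24, 11.38 and 5.97. Fibroblast markers had medians of 5.98, 11.94, 11.91 and 9.41, with 10 of 10 above the median of all values in each culture and 2 of 10 at Day0. Leukocyte markers had medians of 6.42, 10.47, 11.23 and 7.26, and cycling markers 7.66, 8.94, 8.60 and 11.65. Pluripotency markers reached the median of all values for 7 of 8 genes in iPS cells and for 1 of 8, Sox2, on each other array. Fewer cells of a type and less RNA per cell cannot be told apart in such bulk samples, and the part of these cell types in the results below was not tested.

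Most IFT and BBSome genes had a modestly lower signal in all 3 cultures than in fresh cells, as 29 of 36 did. Put otherwise, Day0 gave the brightest of the 4 signals for these 29 genes. They were 29 of the 35 measured genes that reached the median on some array, against 30.3% of all such named genes. iPS cells gave the dimmest signal for 20 of the 35, against 33.0% of all such genes. The median signal of the 36 genes was 8.74 on the Day0 array, 8.06 at 3w+Dox, 8.21 after withdrawal and 7.82 in iPS cells. In all, 32 of the 36 genes reached the median of all values on all 4 arrays. The exceptions were Ift74, Traf3ip1 and Bbs10, which fell short on some arrays, and Bbs12, which was dim on every array and could not be counted in any comparison.

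**Figure D1:**
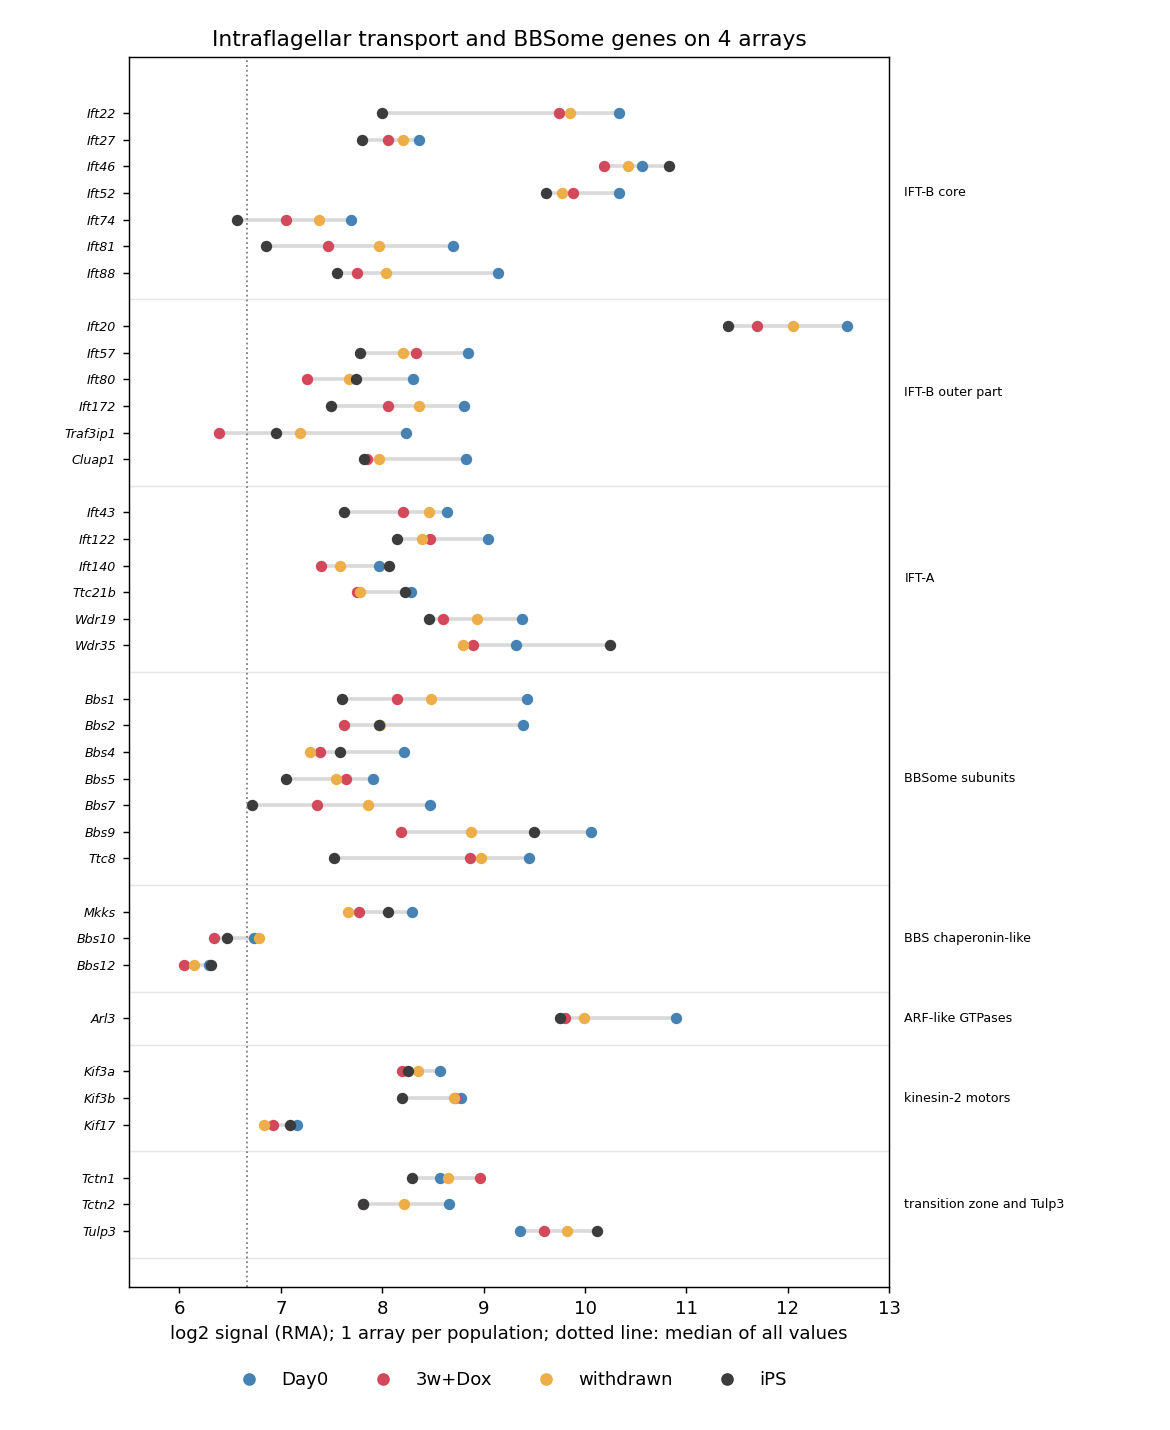
Log2 signal of each of the 36 measured genes (rows, grouped by role) in the 4 populations, 1 point per array, with the median of all values (6.67) as a dotted line. Day0 (blue) is the rightmost point for 29 genes, and 5 genes, Ift46, Ift140, Wdr35, Bbs12 and Tulp3, are brightest in iPS cells (dark). The 3w+Dox point of Tctn2 (7.81) lies under its iPS point (7.81).

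Promoters of several of these genes hold the X-box, the binding motif of RFX transcription factors, which are known regulators of IFT genes. The motif was searched as GTTNCC, a spacer of 0 to 3 bases and GGNAAC, a pattern that is its own reverse complement, in windows from 250 bases before to 50 bases after the transcript start (RefSeq, GRCm38.p6). RefSeq windows were matched for 33 of the 36 genes, 1 window each, with no entry for Ift80, Ift81 and Ift122. An exact match was found for 3 of 33 genes (9.09%), Bbs7, Ift57 and Tctn1, against 0.974% of 17452 named genes with a window and 0.804% of all 32851 windows. With 1 mismatch allowed among the 10 fixed letters, 9 of 33 genes (27.3%) had a match, against 6.74% of named genes and 5.44% of all windows. Other lists of ciliary genes held such matches too. Among the further pathway genes described later, 6 of 52 (11.5%) had an exact match and 18 (34.6%) a match with 1 mismatch allowed, and among motile axoneme genes 0 of 27 and 12 (44.4%) did. The following stretches are shown because they hold exact or near-exact matches upstream of the start, with the match in capitals. They come from chr3:36613467-36613540 on the minus strand (Bbs7), chr16:49699204-49699276 on the plus strand (Ift57), and, each with 1 mismatch, chr5:136908087-136908149 (Ift22), chr5:124598657-124598730 (Tctn2) and chr4:138262148-138262220 (Kif17), all on the plus strand. The Ift57 and Ift22 stretches each hold a further match with 1 mismatch, left in lower case.
Bbs7: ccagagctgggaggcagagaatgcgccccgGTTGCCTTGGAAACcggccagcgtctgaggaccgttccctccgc
Ift57: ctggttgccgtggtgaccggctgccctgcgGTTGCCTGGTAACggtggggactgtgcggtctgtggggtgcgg
Ift22: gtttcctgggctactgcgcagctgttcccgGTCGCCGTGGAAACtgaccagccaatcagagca
Tctn2: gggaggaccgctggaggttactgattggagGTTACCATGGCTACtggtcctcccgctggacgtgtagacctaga
Kif17: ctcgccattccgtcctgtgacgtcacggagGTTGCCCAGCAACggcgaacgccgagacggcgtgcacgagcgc

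The exact match of Tctn1, GTTGCCCGGGCAAC, lies after the transcript start, at bases 37 to 50. The 3 genes with an exact match had unlike values, since their differences at 3w+Dox from Day0 were -1.11 for Bbs7, -0.51 for Ift57 and 0.40 for Tctn1. The other 30 genes with a window spanned -1.88 to 0.24, with a median of -0.58. A match describes the letters of the window and does not show binding. The 5′ arm alone, GTTNCC on either strand, was present in 27 of 33 windows (81.8%), in 49.3% of named genes and in 45.3% of all windows.

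The first comparison sets cells after 3 weeks in culture with doxycycline beside fresh cells. Of the 36 genes, 34 were lower at 3w+Dox, with a median difference of -0.58 and a range of -1.88 to 0.40. Among the 35 that reached the brightness limit, 33 were lower by any amount, against 53.7% of the named genes. At least 2-fold lower were 9 of the 35, against 13.3% of named genes, and 0 were at least 2-fold higher, against 15.3%. The 9 genes were Bbs9, Traf3ip1, Bbs2, Ift88, Bbs1, Ift81, Bbs7, Arl3 and Ift80, so 4 of the 7 BBSome subunits were among them. The median over all bright named genes was -0.06, with quartiles of -0.54 and 0.47. Ciliated cell markers were lower on the same array by a median of -3.32, in 10 of 10 genes, and fibroblast markers were higher by a median of 6.04. The part of these cells in the differences was not tested.

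After withdrawal the 2-fold limit was reached by 0 of 35 genes in either direction. The shares of named genes were 2.68% higher and 3.47% lower. Of 36 genes, 26 were higher in withdrawn than in 3w+Dox cells and 10 were lower, and among the 35 bright ones 10 were lower, against 50.5% of named genes. The median difference was 0.19, and the range was -0.31 (Tctn1) to 0.79 (Traf3ip1), beside quartiles of -0.20 and 0.19 over bright named genes. Ciliated cell markers were higher by a median of 1.95, in 10 of 10 genes.

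Withdrawn cells compared with Day0 gave 4 of 35 genes at least 2-fold lower, namely Bbs2, Bbs9, Ift88 and Traf3ip1, against 13.8% of named genes, and 0 higher, against 13.9%. Lower by any amount were 32 of the 35, against 56.2%. The median difference over the 36 was -0.50. In 24 of the 36 genes the withdrawn signal lay between the lower 3w+Dox and the higher Day0 signal. The share of named genes with this order was not computed, so the count only describes these genes.

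iPS cells compared with Day0 gave 15 of 35 genes at least 2-fold lower, against 21.6% of named genes, and 0 higher, against 22.8%. Lower by any amount were 31 of the 35, against 47.3%. The median over the 36 was -0.85, and the range from -2.33 (Ift22) to 0.92 (Wdr35) was wider than in the other 2 comparisons with Day0. Bright named genes also spread more widely here, with quartiles of -0.83 and 0.90. Their quartiles were -0.54 and 0.47 at 3w+Dox and -0.57 and 0.39 after withdrawal. Only Ift22 passed a 4-fold limit, which 10.3% of named genes passed downwards. iPS cells compared with 3w+Dox cells showed no common direction. Ift22 and Ttc8 were at least 2-fold lower, against 21.8% of named genes, and Wdr35 and Bbs9 at least 2-fold higher, against 19.9%. Of 34 bright genes, 20 were lower by any amount, against 48.5%, and the median over the 36 was -0.09. Against withdrawn cells, Ift22, Ttc8, Bbs7 and Ift81 were at least 2-fold lower in iPS cells, against 21.6% of named genes, and Wdr35 was higher, against 19.9%. Lower by any amount were 25 of the 35, against 48.8%.

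**Figure D2:**
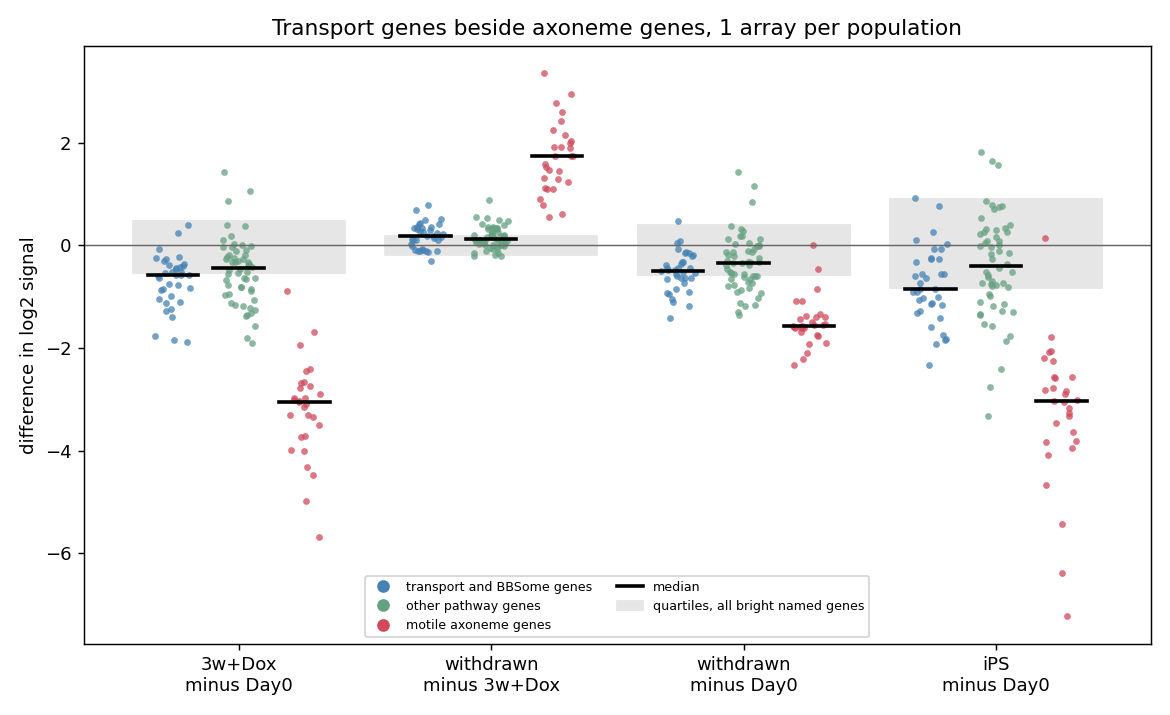
Differences in log2 signal for the transport and BBSome genes (blue, 36), other genes of the pathway (green, 56) and motile axoneme genes (red, 29), with the median of each as a bar and the quartiles of all bright named genes as a grey band. The medians at 3w+Dox against Day0 are -0.58, -0.45 and -3.05.

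IFT-B is the larger train complex and carries cargo such as tubulin outwards. Its core was represented by 7 genes, all lower at 3w+Dox than at Day0, with a median of -0.59. Ift88, a subunit without which cilia do not assemble, read 9.15 on the Day0 array, 7.75 at 3w+Dox, 8.04 after withdrawal and 7.55 in iPS cells. Ift81 read 8.70, 7.47, 7.96 and 6.85 on the same arrays, and its partner Ift74 read 7.69, 7.06, 7.37 and 6.56. Ift81 and Ift74 together bind tubulin, and both had the same order of arrays, with Day0 highest and iPS lowest. Ift22, a small GTPase-like subunit, read 10.34, 9.75, 9.85 and 8.00, so the 3 lung populations lay within 0.59 of each other and the iPS signal was 5.05-fold below Day0. Ift46 was brightest in iPS cells and read 10.56, 10.19, 10.43 and 10.83. The GTPase Ift27, which links IFT to the BBSome, read 8.36, 8.06, 8.20 and 7.80. Ift52, a scaffold of the core, read 10.34, 9.88, 9.78 and 9.61. Signals of these last 3 genes stayed within 2-fold over the 4 arrays.

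The outer part of IFT-B, through which the train meets its motor, gave 6 genes, all lower at 3w+Dox, with a median of -0.93. Traf3ip1, which binds microtubules, had the lowest 3w+Dox difference of the IFT genes and read 8.24 on the Day0 array, 6.39 at 3w+Dox, 7.18 after withdrawal and 6.95 in iPS cells, a 3.60-fold lower signal at 3w+Dox. The 3w+Dox and Day0 signals of Ift80 were 7.26 and 8.31, with 7.67 in withdrawn and 7.74 in iPS cells. Ift172, which acts at the turn of the train at the tip, read 8.81, 8.06, 8.37 and 7.49. Day0 was highest for these 3 genes, and the lowest array was 3w+Dox for Traf3ip1 and Ift80 and iPS for Ift172. Ift20, which also sits at the Golgi and sorts membrane proteins for the cilium, read 12.58, 11.70, 12.05 and 11.41. Ift57 read 8.85, 8.33, 8.21 and 7.79, and Cluap1 read 8.83, 7.85, 7.97 and 7.82. In iPS cells 5 of these 6 genes were at least 2-fold below Day0, all except Ift80, against 21.6% of named genes.

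IFT-A returns with the dynein motor and, with Tulp3, brings membrane proteins into the cilium. Its 6 genes were all lower at 3w+Dox, with a median of -0.55 beside -0.58 for the whole set, a range of -0.78 to -0.43 and 0 genes at the 2-fold limit. Wdr35, a subunit needed for the entry of membrane proteins, read 9.32 on the Day0 array, 8.90 at 3w+Dox, 8.79 after withdrawal and 10.25 in iPS cells, which made it the gene with the largest positive iPS difference of the set. Ift140, a core subunit, read 7.97, 7.40, 7.58 and 8.07, and Ttc21b read 8.29, 7.75, 7.78 and 8.22. The iPS signals of these 2 genes lay within 0.10 of Day0. Wdr19 read 9.38, 8.60, 8.93 and 8.47. Ift122 read 9.04, 8.47, 8.39 and 8.14, and Ift43 read 8.64, 8.20, 8.46 and 7.63. The IFT-A subunits thus differed in sign in iPS cells, with 2 above and 4 below Day0.

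The 7 BBSome subunits had the lowest median of the complexes at 3w+Dox (-1.11) and in iPS cells (-1.41). Bbs9 read 10.06 on the Day0 array, 8.18 at 3w+Dox, 8.87 after withdrawal and 9.50 in iPS cells. Bbs2 read 9.39, 7.62, 7.98 and 7.97, and Bbs7 read 8.47, 7.35, 7.86 and 6.72. Bbs2, Bbs7 and Bbs9 form the core on which the complex is assembled, and all 3 were lower than at Day0 both at 3w+Dox and in iPS cells. From 3w+Dox to iPS cells their differences had unlike signs, 1.32 for Bbs9 and -0.64 for Bbs7. Bbs1, the subunit that contacts Arl6, read 9.43, 8.15, 8.49 and 7.60. Ttc8 read 9.45, 8.87, 8.97 and 7.52, a 3.80-fold lower signal in iPS cells than at Day0. For both genes Day0 was highest and iPS lowest. Bbs4 read 8.22, 7.39, 7.28 and 7.59, and Bbs5, which binds membrane lipids, read 7.91, 7.64, 7.54 and 7.06. These 2 subunits stayed within 2-fold of Day0 on every array.

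Chaperonin-like proteins help to assemble the BBSome, and their 3 genes all stayed within 2-fold over the 4 arrays. Mkks read 8.30 on the Day0 array, 7.77 at 3w+Dox, 7.66 after withdrawal and 8.05 in iPS cells. Bbs10 read 6.74, 6.34, 6.78 and 6.47, and Bbs12 read 6.29, 6.05, 6.15 and 6.31. The signals of the last 2 genes lay near or below the median of all values on every array.

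Arl3, the small GTPase that releases lipid-anchored proteins from their carriers inside the cilium, read 10.90 on the Day0 array, 9.80 at 3w+Dox, 9.99 after withdrawal and 9.75 in iPS cells, so that the 3 cultures lay close together below Day0. The motor genes had small differences. Kif3a and Kif3b, the motor subunits of heterotrimeric kinesin-2, read 8.57, 8.19, 8.36 and 8.25, and 8.78, 8.72, 8.70 and 8.19. Kif17, the homodimeric kinesin-2, read 7.16, 6.92, 6.83 and 7.09. Heterotrimeric kinesin-2 also moves cargo outside cilia, and the 3 motor genes had a median of -0.23 at 3w+Dox and -0.32 in iPS cells.

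The tectonics Tctn1 and Tctn2 belong to the transition zone, the gate at the ciliary base. Tctn1 was brightest at 3w+Dox and read 8.57 on the Day0 array, 8.97 at 3w+Dox, 8.65 after withdrawal and 8.29 in iPS cells. Tctn2 read 8.65, 7.81, 8.22 and 7.81. The adaptor Tulp3 was the only measured gene of the set that was dimmest at Day0, with signals of 9.35, 9.60, 9.83 and 10.12. Its iPS signal was 1.70-fold above Day0, which is short of the 2-fold limit.

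**Figure D3:**
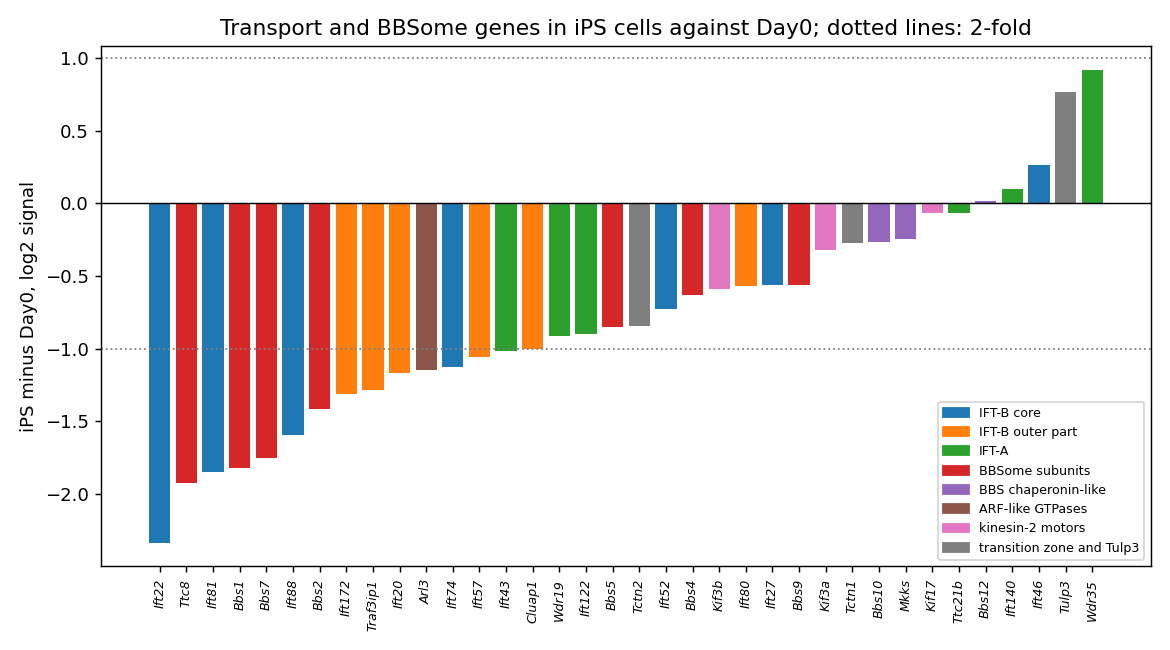
Difference in log2 signal between iPS cells and Day0 for each of the 36 genes, coloured by role and ordered by size, 1 array per population, with 2-fold differences as dotted lines. The bars run from -2.33 for Ift22 to 0.92 for Wdr35, and 31 of 36 lie below 0.

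Further genes of the same pathway were taken from 5 lists. Of 58 listed genes 56 were measured, and 51 reached the brightness limit in the comparison of 3w+Dox with Day0. Of these 11 were at least 2-fold lower, against 13.3% of named genes, and 2 higher, against 15.3%, and the median difference over the 56 was -0.45. Among 9 bright subunits of IFT, the BBSome and kinesin-2 outside the set there were 3 lower genes, Rabl2, Ttc26 and Ttc30b, and 1 higher, Kif3c. Rabl2, a GTPase that binds IFT-B, read 10.92 on the Day0 array, 9.01 at 3w+Dox, 9.56 after withdrawal and 8.16 in iPS cells. Ttc30b, a subunit of IFT-B, read 7.94, 6.72, 7.04 and 4.62, the last of which lies below the 25th percentile of all values (5.07), so no fold is given for it. Its relatives Ttc30a1 and Ttc30a2 did not reach the median of all values on any array. Kif3c, a further kinesin-2 motor, read 6.94, 8.00, 8.09 and 7.80. Ttc30b and its relatives encode closely similar proteins, and cross-hybridisation between their probes was not tested.

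Of 7 genes of the return motor dynein-2, 2 were at least 2-fold lower at 3w+Dox, Dync2li1 and Wdr34, against the same 13.3%. Dync2li1, its light intermediate chain, read 9.35 on the Day0 array, 8.03 at 3w+Dox, 8.18 after withdrawal and 7.59 in iPS cells. The heavy chain gene Dync2h1 read 7.70, 6.72, 7.07 and 6.39, just short of 2-fold at 3w+Dox. Dynll1 and Dynlrb1, light chains that also serve cytoplasmic dynein, differed by -0.09 and 0.18 at 3w+Dox. Of 15 measured transition zone genes 5 were at least 2-fold lower at 3w+Dox, led by Tmem107 at -1.80, against 13.3% of named genes. In iPS cells 5 of the 15 were lower, led by Tmem67 at -2.40, against 21.6%. Both encode membrane proteins of the ciliary gate. Among lipid-anchored cargo and membrane traffic genes, 0 of 11 bright ones were at least 2-fold lower at 3w+Dox, against 13.3% of named genes. Only Rab23, a GTPase that restrains Hedgehog signalling, was at least 2-fold higher, by 1.42, against 15.3%. Of 10 basal body genes that reached the brightness limit, 2 were at least 2-fold higher in iPS cells than at Day0, Odf2 by 1.57 and Talpid3 by 1.82, which is near the 22.8% of named genes.

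Axoneme genes of motile cilia differed by far more than the transport genes. Of 29 measured axoneme genes, 28 reached the brightness limit in the comparison of 3w+Dox with Day0. All 28 lay 2-fold or more under Day0, against 13.3% of named genes, and 26 lay 4-fold or more under it. Of the 35 bright transport genes, 9 and 0 did so. The share of named genes at 4-fold was not computed for this comparison. Medians over all measured genes of the 2 lists were -3.05 and -0.58. After withdrawal 25 of 26 bright axoneme genes were at least 2-fold higher than at 3w+Dox, against 2.68% of named genes. Of the bright transport genes 0 of 35 were. Among the 29 axoneme genes, 4 reached the brightness limit at 3w+Dox and 26 after withdrawal, so most were counted only through the withdrawn array. The axoneme genes that missed the limit on both arrays were higher by 0.55 to 0.89, short of 2-fold. Medians over all measured genes were 1.73 for axoneme and 0.19 for transport genes. In iPS cells the axoneme median was -3.03 from Day0, and the transport median was -0.85. The axoneme differences at 3w+Dox ran from -5.68 to -0.89 and overlapped the transport range of -1.88 to 0.40. The -0.89 was that of Spag6, the gene that missed the brightness limit. Spag6 read 4.18 at Day0 and 3.29 at 3w+Dox, both below the 25th percentile of all values (5.07). Among the 28 bright genes, Rsph9 at -1.70 lay in the transport range. At 3w+Dox 4 of 29 axoneme genes and 33 of 36 transport genes reached the median of all values. With 1 array a population the difference between the 2 lists has no test.

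**Figure D4:**
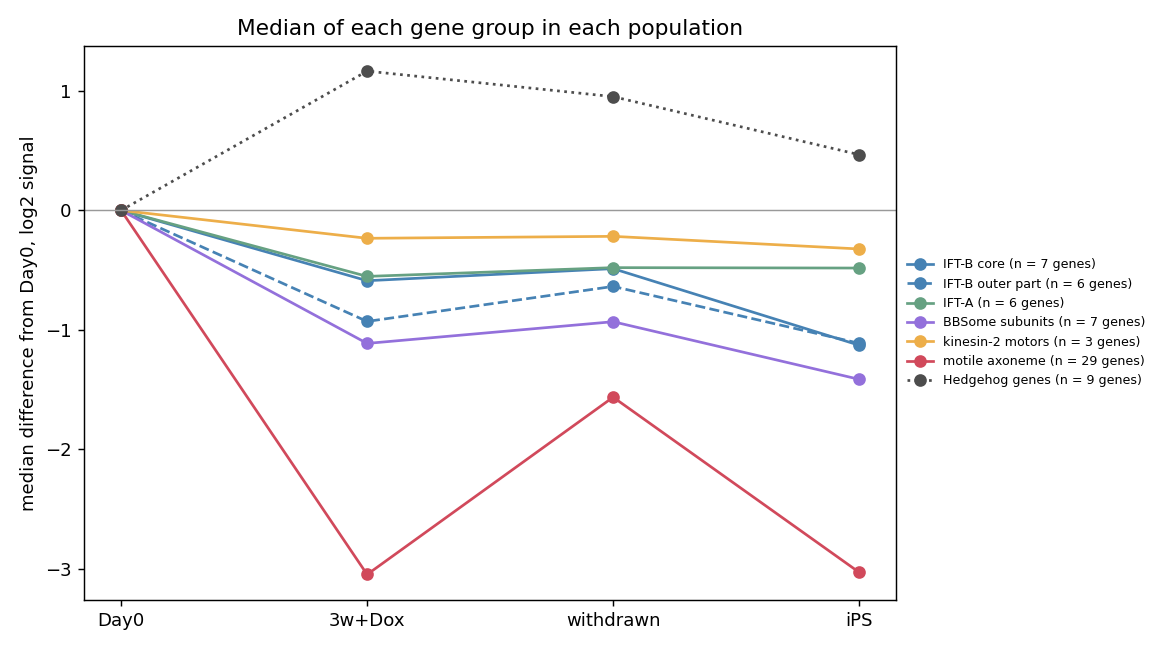
Median difference from Day0 in log2 signal for 5 groups of transport genes, motile axoneme genes and Hedgehog genes in each population, with lines that join populations for reading only. BBSome subunits reach -1.11 at 3w+Dox and kinesin-2 motors -0.23, beside -3.05 for the axoneme.

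The regulators of ciliary genes did not follow a common pattern. Foxj1, which drives motile cilium genes, read 11.19 for Day0, 7.99 at 3w+Dox, 10.45 after withdrawal and 8.38 in iPS cells, and was thus 9.19-fold lower at 3w+Dox than in fresh cells. Rfx3, an RFX factor of ciliated cells, read 8.57 on the Day0 array, 6.93 at 3w+Dox, 7.42 after withdrawal and 7.41 in iPS cells. Rfx2 read 9.03, 7.34, 7.86 and 9.90, so it was lower in the lung cultures and above Day0 in iPS cells. Rfx1 read 8.55, 8.18, 8.09 and 8.35, and Rfx7 read 9.84, 10.00, 9.94 and 10.99.

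Hedgehog signalling depends on IFT and the primary cilium. Of 9 measured genes of that pathway, 7 reached the brightness limit. At 3w+Dox 5 of these 7 exceeded Day0 at least 2-fold, with 0 lower. The shares of named genes were 15.3% and 13.3%. Some of the 5, Gli2 and Hhip among them, reached the limit only on the 3w+Dox array, where they were high. The measured genes left out were dim on both arrays and differed by -0.18 and 0.04, so the limit raised the counted share. Gli2, a transcription factor of the pathway, read 5.60 on the Day0 array, 8.67 at 3w+Dox, 8.56 after withdrawal and 9.97 in iPS cells. The receptor component Smo read 9.42, 10.75, 10.88 and 9.35. Smo was thus high in the 2 lung cultures, and Gli2 in all 3 cultures. The pathway's target genes gave mixed values, since Gli1 read 5.77, 5.60, 5.94 and 7.68, Ptch1 read 9.73, 9.23, 8.93 and 10.64, and Hhip read 5.08, 7.50, 7.20 and 5.83. Fibroblast markers were higher by 6.04 at 3w+Dox and 3.14 in iPS cells on the same arrays, and their part in these values was not tested.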

How the data were processed

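RNA of 4 populations, grouped by sample title, was hybridised to 4 arrays. The deposited table holds log2 signals of 25206 probe sets made by the authors with RMA in the affy package and R 3.0.2, per the submitters' processing notes. Their range, 1.70 to 13.85, is that of log2 signals. RMA equalises the distributions of the arrays, so a shift shared by most genes is not visible. The version of the probe set definition and the genome build are not stated in the labels or the processing notes. GEO's platform annotation named 23185 probe sets, 1 per gene, and 2021 stayed unnamed. Differences, counts and medians were computed with Python 3.11.15 and pandas 2.3.3 without further normalization. The calling and motif steps were tested on simulated data. No p-value was computed. All 38 genes are named. Of the other lists, the rule named up to 4 genes furthest apart per comparison and 7 preset ones. Dynll1, Dynlrb1, Ttc30a1, Ttc30a2 and Spag6 were added after their values were seen. Of 194 listed names 7 had no named probe set, and 3 were found through another symbol. The genes, lists and thresholds were chosen with earlier results of these data known. Alternatives were other fold limits, brightness filters, normalizations, summaries and motif definitions.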

Additional observations from a re-analysis of the deposited data

How the results depend on the processing

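No paired analysis was possible because each population has 1 array, and no replicate could be left out. Medians of the 36 genes kept their sign in all 6 comparisons under all 5 alternatives. In 29 of 30 cases they stayed within 0.1 log2 units. The exception was the mean at 3w+Dox against Day0, -0.70. Several of these alternatives had little room to change a median. Raising low values to the 25th percentile (5.07) touched no gene of the set, whose lowest signal was 6.05. Leaving out genes dim on every array removed only Bbs12, and centring moved no array by more than about 0.03. Counts of genes past the fold limit depended on that limit. At 1.5-fold they were 17 lower for 3w+Dox against Day0, 2 higher for withdrawn against 3w+Dox and 14 lower for withdrawn against Day0. For iPS against Day0, 3w+Dox and withdrawn cells they were 24, 10 and 11, of which 22, 6 and 9 were lower. At 4-fold they were 1 for iPS against Day0 and 0 in the other comparisons. With the brighter array at or above the 75th percentile (8.82) the counts were 5 for 3w+Dox against Day0, 9 for iPS against Day0 and 3 for iPS against withdrawn cells. Shares of named genes were not computed at 1.5-fold, with this filter, or at 4-fold other than for iPS against Day0. Another normalization or no brightness filter kept all counts within 1.5 times. These checks had little room to act. Without the filter only Bbs12 and Bbs10 could be added, neither 2-fold apart in any comparison, and RMA had already equalised the arrays. The X-box count went from 3 to 9 with 1 mismatch and to 27 with its 5′ arm alone.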
